A study of Mus musculus with 5 samples.

Results

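The 9 genes described here mark the path from neural precursor cell to neuron: the neurogenic transcription factor genes Neurog2 and Neurod1, the neuroblast and neuronal genes Dcx, Tubb3, Stmn2, Elavl4, Nefl and Rbfox3, and Rest, the gene of a repressor of neuronal genes. They were picked by symbol from the 46078 genes that the expression table of each library lists. All 9 were listed, and 7 had a mean of at least 1 TPM (a gene's share of all transcripts, after division by transcript length and scaling to the same total in each library) over the libraries. Neurog2 and Stmn2 stayed under this level and were not tested.

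The cells were neural precursor cells (NPC) of the subventricular zone (SVZ) of adult C57BL/6 mice, the forebrain niche beside the lateral ventricles. The study used them as a forebrain control beside brainstem astrocytes made from embryonic stem cells. The cells were expanded as neurospheres in EGF and FGF2, plated on poly-D-lysine and given PBS (phosphate-buffered saline) as a sham exposure the day after. RNA was isolated 1 h later in 2 libraries (replicates 1 and 2) and 8 h later in 3 libraries (replicates 13, 14 and 15). Both groups were labelled as female mice of 5 to 8 weeks without mutation, and the study's methods state an older age. The cells of a replicate came from 1 animal each, and growth in EGF and FGF2 limits the cultures as a model of the niche, since these factors keep precursors dividing.

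In the adult SVZ, stem cells give rise to dividing progenitors and then to neuroblasts, which migrate to the olfactory bulb and become interneurons. Proneural transcription factors of the basic helix-loop-helix (bHLH) family start this program by pairing with E proteins at E-box motifs, and Id proteins block them by binding the E proteins. Rest works in the opposite direction: it binds the RE1 motif near neuronal genes in stem and non-neuronal cells and recruits corepressors that keep these genes low.

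The library identifiers in the labels fall into 2 number series, and no source used here states what they stand for. Series 1 holds both 1 h libraries and 8 h replicate 14, and series 2 holds 8 h replicates 13 and 15. The split coincided with the sex genes, although the labels state female for all 5 libraries: in the 3 series 1 libraries 4 Y-linked genes summed to between 138 and 181 TPM with Xist at 0.0285 to 0.0611 TPM, and in the 2 series 2 libraries Xist stood at 165 and 199.7 TPM with the Y-linked genes at 0.0253 TPM or less. Part of the time comparison therefore cannot be told apart from the series and the sex of the animal, and the values with the series as a term are given for the 7 tested genes. Series 2 holds no 1 h library, so a comparison within a series exists for series 1 alone. With the series as a term, a TPM estimate therefore sets 8 h replicate 14 alone against both 1 h libraries. No spread among series 1 libraries at 8 h enters it. The separate count table lists 7599 genes with 13988166 to 18572154 reads per column. Its 3 columns named for 8 h all resembled the TPM tables of other libraries more than their own, and the one named for 8 h replicate 14 matched its own for 24.3% of genes and none for more than 38.5%. Its values are therefore given by column name, second to the TPM values, and which library, and so which series, an 8 h column holds is in doubt. Of the markers of the labelled cell type, the stem cell genes Nes, at 690.1 to 784 TPM, and Sox2, at 181 to 228 TPM, were expressed in each library. The summed level of 6 microglia markers was 0.461 to 1.51 TPM, and that of 8 oligodendrocyte lineage markers was 1639 to 2462 TPM.

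The order of the 9 genes was nearly fixed from library to library. Tubb3, with a mean of 31.7 TPM, and Rest, with 14.7 TPM, ranked 1 and 2 in each of the 5 libraries, and their ranges did not overlap with each other or with those of the next genes. Nefl, with a mean of 8.68 TPM, Dcx, with 6.02 TPM, and Elavl4, with 4.97 TPM, followed with ranges that overlapped from neighbor to neighbor. Neurod1, with 1.79 TPM, and Rbfox3, with 1.78 TPM, formed a pair below them that could not be ordered. Stmn2, with 0.197 TPM, and Neurog2, with 0.0927 TPM, came last, again with overlapping ranges. Among the 13870 genes with a mean of at least 1 TPM, Tubb3 stood above 61.1% of genes, Rest above 40.2%, Dcx above 22.6% and Neurod1 and Rbfox3 above 7.28% and 7.21%, so that 6 of the 7 tested genes lay below the middle of the distribution.

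**Figure D1:**
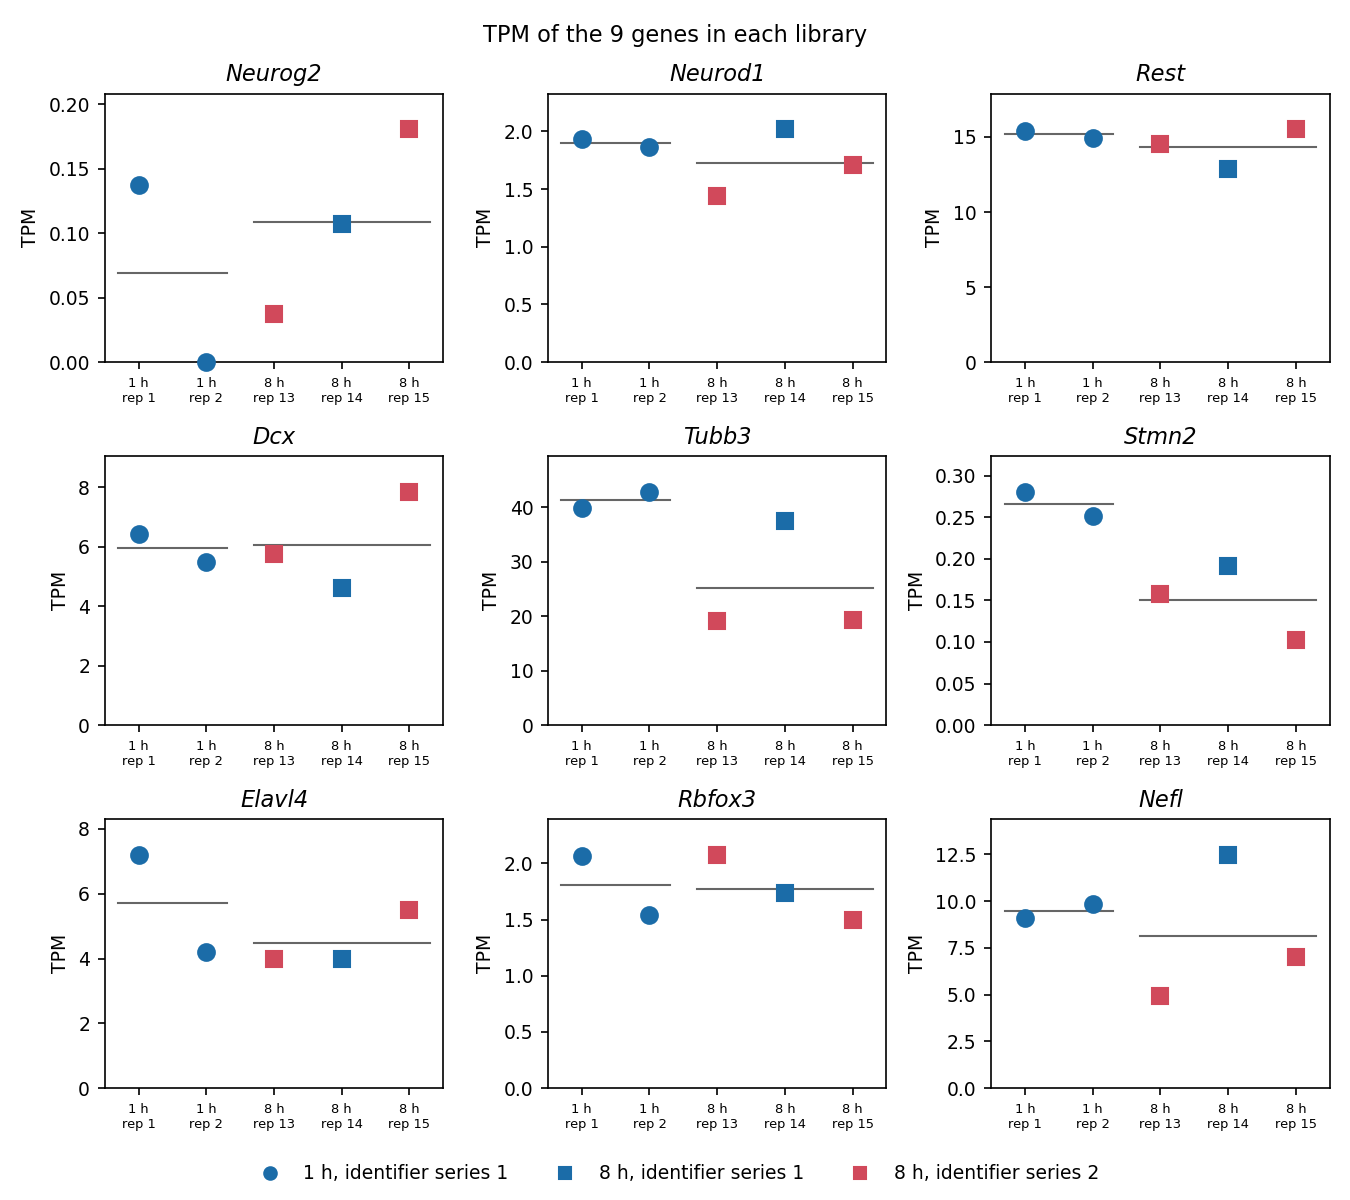
TPM of each of the 9 genes (vertical axes from 0, scaled per gene) in the 2 libraries at 1 h (circles) and the 3 at 8 h (squares), with blue for identifier series 1, red for series 2 and horizontal lines for group means. Tubb3 lies at 39.8 and 42.9 TPM at 1 h and 37.4 TPM in the series 1 library at 8 h, and at 19.0 and 19.3 TPM in both series 2 libraries, while Rest spans only 12.8 to 15.6 TPM.

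The comparison of 8 h with 1 h asked whether the time after plating and PBS addition altered these genes, and it found no called difference. With limma on log2(TPM + 1) and Benjamini-Hochberg adjustment over all genes tested, 0 of the 7 reached the call thresholds, an adjusted p no higher than 0.05 together with a log2 fold change beyond 1 in either direction. Of all genes 0.0433% reached them (0.0144% higher and 0.0288% lower at 8 h). At an unadjusted p under 0.05 limma marked 1 of the 7, Tubb3, against 12.3% of all genes. Only for Tubb3 among the 7 did the groups not overlap (1 gene), against 33.1% of all genes. All 7 estimates were negative (8 h minus 1 h), as were 34.1% of all genes. The median of all genes was a log2 fold change of 0.10 and that of the 7 genes was -0.10. After median-ratio scaling, which moved the median of all genes by -0.10, the 7 estimates were still negative, but with the identifier series as a term 5 were negative and 2 positive, 0 of the 7 were called and 0 had an unadjusted p under 0.05, in a fit that called 0.137% of all genes. In the count table, which lists 6 of the 9 genes, edgeR's quasi-likelihood test and DESeq2 called 0 of 6, and neither marked any of the 6 at an unadjusted p under 0.05. Over all genes edgeR called 0.0%, with 2.62% at an unadjusted p under 0.05. In bulk RNA, fewer cells of a type and less RNA per cell cannot be told apart.

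**Figure D2:**
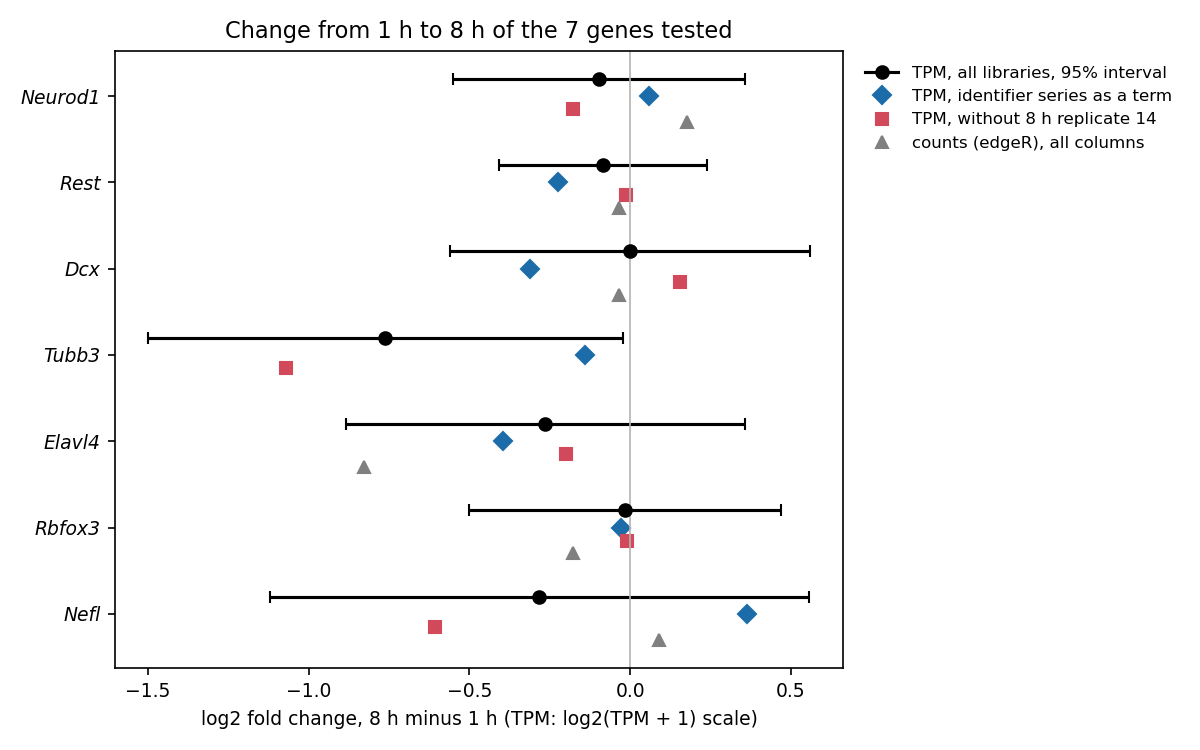
Log2 fold change (8 h minus 1 h) of the 7 tested genes from the TPM tables (black circles with 95% intervals), from the same tables with the identifier series as a term (blue diamonds) or without 8 h replicate 14 (red squares), and from the count table (grey triangles, no triangle for Tubb3, which it does not list). The interval excludes 0 for Tubb3 alone, at -1.50 to -0.02, and the Tubb3 estimate moves from -1.07 without 8 h replicate 14 to -0.14 with the series as a term.

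Of the neurogenic factors, Neurog2 was near the limit of what these libraries registered and Neurod1 was low. Neurog2 (ENSMUSG00000027967, chr3:127633135-127635631, plus strand, GRCm38) encodes a proneural bHLH factor that commits progenitors to a neuronal fate. Its levels were 0.138 and 0 TPM at 1 h and 0.0374, 0.107 and 0.181 TPM at 8 h. The gene was listed at 0 in one of the 1 h libraries, and the groups overlapped at these very low levels.

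Neurod1 (ENSMUSG00000034701, chr2:79452521-79456751, minus strand) encodes a bHLH factor that acts after the proneural factors in neuronal differentiation. The 1 h libraries held 1.94 and 1.87 TPM of Neurod1 and the 8 h libraries 1.44, 2.03 and 1.70 TPM. The library with the highest and the library with the lowest value were both taken at 8 h. The log2 fold change was -0.10 ± 0.19 (SE, n = 2 and 3 libraries), with a 95% interval of -0.55 to 0.36 and an adjusted p of 0.805 (limma). Both series 2 libraries lay below the 3 series 1 libraries, with a mean of 1.57 against 1.94 TPM. The count table held 49 and 55 reads at 1 h and 67, 82 and 46 reads at 8 h, and a count of 46 has an exact Poisson 95% interval of 33.7 to 61.4, which covers counting error only. The limma estimate was 0.06 ± 0.22 with the identifier series as a term. The edgeR estimate of 0.18 ± 0.42 (adjusted p = 0.979) had the opposite sign to the limma estimate without that term.

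The promoter windows of Neurog2, Neurod1 and Tubb3 are shown because all 3 genes have the same element at a similar distance from the start although their levels differ, from under 1 to over 30 TPM. Each window runs from 250 bases before to 50 bases after the transcription start in RefSeq for GRCm38.p6, is written 5′ to 3′ on the strand of the gene, and has the letters TATAA, searched on both strands, in capitals. In Tubb3 a match on each strand overlaps, which gives 6 capitals.
Neurog2, chr3:127632886-127633185, plus strand: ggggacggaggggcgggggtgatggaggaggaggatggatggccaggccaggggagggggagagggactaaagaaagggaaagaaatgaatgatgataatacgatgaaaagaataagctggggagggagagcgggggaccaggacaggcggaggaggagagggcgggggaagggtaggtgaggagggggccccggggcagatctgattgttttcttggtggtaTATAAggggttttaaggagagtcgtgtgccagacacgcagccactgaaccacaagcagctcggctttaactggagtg
Neurod1, chr2:79456587-79456886, minus strand: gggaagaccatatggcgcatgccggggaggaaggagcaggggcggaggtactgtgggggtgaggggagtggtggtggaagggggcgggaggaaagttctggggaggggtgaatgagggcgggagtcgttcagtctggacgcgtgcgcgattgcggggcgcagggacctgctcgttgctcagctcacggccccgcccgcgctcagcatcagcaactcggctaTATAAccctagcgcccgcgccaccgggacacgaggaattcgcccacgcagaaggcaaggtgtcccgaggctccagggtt
Tubb3, chr8:123411303-123411602, plus strand: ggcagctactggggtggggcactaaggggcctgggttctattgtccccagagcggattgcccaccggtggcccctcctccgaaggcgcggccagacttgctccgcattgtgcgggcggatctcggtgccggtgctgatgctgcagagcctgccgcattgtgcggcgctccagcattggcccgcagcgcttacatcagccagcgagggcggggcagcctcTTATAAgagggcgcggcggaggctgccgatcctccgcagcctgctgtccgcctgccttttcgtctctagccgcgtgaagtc
The match began 27 bases before the start in Neurog2, 29 bases before it in Neurod1 and 31 and 30 bases before it in Tubb3. These distances hold for the RefSeq start alone. In Neurod1 and Tubb3 that start and the match lie inside the gene coordinates given in this text. TATAA was present anywhere in 24.9% of 32851 promoter windows and began 25 to 35 bases before the start in 3.53%, a range that was chosen after the matches were seen. The E boxes CAGATG and CAGCTG and the left part of the RE1 motif, TTCAGCACC, present in 0.371% of all windows, were also searched on both strands and had no match in these 3. A match or its absence describes the letters of a window only. Promoter windows were at hand for 6 of the 9 genes but not for Stmn2, Nefl and Rest. The windows of Dcx held TATAA farther from the start, and that of Rbfox3 held none of the motifs searched.

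Beyond these factors, the 37 genes of a list of proneural and neurogenic transcription factors ranged from abundant to nearly silent. Of the 37, 19 had a mean of at least 1 TPM and 4 (Neurog1, Neurog3, Atoh1 and Nhlh2) were listed at 0 in each library. Sox4, at 175 to 230.2 TPM, and Sox11, at 45.8 to 55.7 TPM, which encode high-mobility-group factors of early neuronal differentiation, were much more abundant than Neurog2 or Neurod1. Of the factors of progenitors, Dlx2, a factor of SVZ interneuron progenitors, stood at 1.65 to 3.34 TPM. Eomes, a factor of intermediate progenitors, stood at 0.0224 to 0.114 TPM.

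With limma 0 of the 19 tested genes of this list were called, and 4 had an unadjusted p under 0.05, each with lower values at 8 h. These were Id1, Id2, Id3 and Hes5, named after their values were seen. Id1 encodes an inhibitor of bHLH factors and stood at 67.7 and 67.6 TPM after 1 h and at 32.5, 36.5 and 32.1 TPM after 8 h. Both 1 h libraries lay far above all 3 libraries at 8 h, the series 1 library among them, and the log2 fold change was -0.99 ± 0.10 with an adjusted p of 0.106 (limma). The estimate was -0.87 with the identifier series as a term and -1.04 without 8 h replicate 14, where limma gave an adjusted p of 0.00306. In the fit without that library, the 8 h libraries come from a series that holds no 1 h library. Time therefore cannot be told apart from the series and the sex of the animal in it. That fit called 4.1% of all genes and all 5 sex genes. Id2 differed between the series: its log2 fold change of -1.06 moved to -0.51 with the series as a term. Hes5, which encodes a Notch-dependent repressor of proneural genes, had log2 fold changes of -1.11 without and -1.21 with the series as a term, with adjusted p of 0.309 and 0.438 (limma). Its levels were 13.0 and 24.6 TPM at 1 h, far apart from each other, and 6.88, 7.15 and 9.57 TPM at 8 h. Over the 19 genes the median log2 fold change was -0.05, and 8 were positive and 11 negative (6 and 13 after median-ratio scaling).

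Rest had the smallest spread of the 9 genes in the TPM tables. In the count table, with reads scaled to the column total (CPM), Rbfox3 spread relatively less. Rest ran from 63.9 to 95.6 CPM there and Rbfox3 from 3.73 to 4.86 CPM. The column named for 8 h replicate 14, of doubtful identity, held the highest Rest and the lowest Rbfox3 value. Without that column Rest ran from 63.9 to 76.1 CPM and Rbfox3 from 3.93 to 4.86 CPM, and Rest spread relatively less. Rest (ENSMUSG00000029249, chr5:77265491-77286432, plus strand) stood at 15.4 and 14.9 TPM after 1 h and at 14.5, 12.8 and 15.6 TPM after 8 h. The libraries lay close together, the highest at 1.21 times the lowest, and the groups overlapped. The log2 fold change was -0.08 ± 0.13 with an adjusted p of 0.763 (limma). The 95% interval ran from -0.41 to 0.24, which on the scale of TPM + 1 leaves room for a ratio of 0.753 to 1.18. With the identifier series as a term the estimate was -0.23 ± 0.13 (adjusted p = 0.679, limma). Its count columns held 1064 and 1240 reads at 1 h and 1151, 1384 and 1228 reads at 8 h, and the edgeR estimate was -0.04 ± 0.19 (adjusted p = 0.984). The 3 genes whose pattern over the 5 libraries was most like that of Rest were Prmt6, Ndst1 and Epc2, at distances of 0.0386, 0.0530 and 0.0544 on the log2(TPM + 1) scale among 11090 genes with a mean of at least 5 TPM.

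The corepressors and modifiers of Rest were all expressed. Of 21 genes, 21 had a mean of at least 1 TPM, and with limma 0 were called and 3 had an unadjusted p under 0.05, each with higher values at 8 h. Rcor1, the gene of the corepressor CoREST, stood at 19.6 and 16.9 TPM after 1 h and at 26.8, 25.1 and 27.2 TPM after 8 h. All 3 libraries at 8 h lay above both at 1 h, and Rest amounted to 78.7% and 88.3% of the Rcor1 level at 1 h and to 51.3% to 57.3% at 8 h. The log2 fold change of Rcor1 was 0.51 ± 0.12 with an adjusted p of 0.294 (limma), and 0.44 with the identifier series as a term. Rcor2, a related corepressor gene, had a log2 fold change of 0.55 (adjusted p = 0.336, limma) and Sin3a, the gene of the scaffold that binds the other end of Rest, one of 0.46 (adjusted p = 0.309, limma), which became 0.31 and 0.35 with the series as a term. The groups did not overlap for 8 genes with higher and 2 with lower values at 8 h, where 23.7% and 9.43% of all genes did so. The median log2 fold change of the list was 0.13 (0.08 with the series as a term) with 15 positive and 6 negative estimates, which became 11 and 10 after median-ratio scaling.

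Of 22 genes taken as known Rest targets, 21 were listed and 17 tested. The list shares Stmn2 with the 9 genes, Snap25, Syn1, Syp and Stx1a with the synapse list and Celf4 and Srrm4 with the list of RNA-binding proteins. limma called 0 of the 17 and 0 had an unadjusted p under 0.05. The median log2 fold change was 0.02, also with the series as a term, with 9 positive and 8 negative estimates (7 and 10 after median-ratio scaling). The most abundant targets were Scg3, a secretory granule gene, at 63.2 to 117 TPM, and Gria2, a glutamate receptor gene, at 49.9 to 99.3 TPM. Scg2, which encodes a granin of secretory granules, stood at 2.78 and 3.16 TPM after 1 h and at 16.0, 3.02 and 13.1 TPM after 8 h. Its high values were those of the series 2 libraries, and its log2 fold change of 1.32 became 0.02 with the series as a term.

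Among the cytoskeletal genes of neuroblasts, Dcx had means of 5.95 ± 0.673 TPM (SD, n = 2) at 1 h and 6.06 ± 1.65 TPM (SD, n = 3) at 8 h. Dcx (ENSMUSG00000031285, chrX:143855842-143933311, minus strand) encodes doublecortin, a microtubule-associated protein of migrating neuroblasts. Its levels were 6.43 and 5.48 TPM at 1 h and 5.74, 4.59 and 7.85 TPM at 8 h. The highest and the lowest library were both at 8 h, on either side of the 1 h values. The log2 fold change was 0.00 ± 0.23 (limma, adjusted p = 1.00) and its 95% interval of -0.56 to 0.56 still holds ratios of TPM + 1 from 0.679 to 1.47. Adding the identifier series as a term gave -0.31 ± 0.22 (adjusted p = 0.736, limma). The counts were 483 and 485 reads at 1 h and 510, 585 and 496 reads at 8 h, with an edgeR estimate of -0.04 ± 0.21 (adjusted p = 0.986). Dcx reached 3.69% to 7.55% of the level of its paralog Dclk1, which stood at 94.0 to 125 TPM. The nearest patterns to that of Dcx were those of Smarcc1, Dscc1 and Ankrd6, at distances of 0.0887, 0.0917 and 0.132.

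Tubb3 was the only one of the 7 tested genes whose 95% interval excluded 0, and the difference followed the identifier series. Tubb3 (ENSMUSG00000062380, chr8:123411424-123422015, plus strand) encodes beta-III-tubulin, the tubulin isotype used as a marker of young neurons. The 1 h libraries held 39.8 and 42.9 TPM of Tubb3 and the 8 h libraries 19.0, 37.4 and 19.3 TPM. The groups did not overlap, but the series 1 library at 8 h lay next to the 1 h libraries, and both series 2 libraries lay far below. The group means were 41.3 ± 2.14 TPM (SD, n = 2) and 25.2 ± 10.5 TPM (SD, n = 3). With limma the log2 fold change was -0.76 ± 0.30 (95% interval -1.50 to -0.02), with an unadjusted p of 0.0450 and an adjusted p of 0.402. Without 8 h replicate 14 only series 2 is left at 8 h, so time and series cannot be told apart. In that fit, which called 4.1% of all genes, the Tubb3 difference was called, at -1.07 with an adjusted p of 0.00347 (limma). With the identifier series as a term it was -0.14 ± 0.12 with an adjusted p of 0.774 (limma).

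The mean of Tubb3 in series 2 was 0.478 times that in series 1, and other measures moved in the same way. Series 2 lay below series 1 without overlap for 3 of the 7 tested genes (Neurod1, Tubb3 and Nefl) and for Stmn2, against 13.5% of all genes tested. The 3 genes with a pattern most like that of Tubb3 were the mitochondrial genes mt-Nd4 and mt-Nd2 and the predicted gene Gm14005, at distances of 0.0889, 0.0933 and 0.130. The share of TPM in mitochondrial genes was 10.9% and 11.1% at 1 h and 6.23%, 10.7% and 6.30% at 8 h, low in the same 2 libraries as Tubb3. Of 9 astrocyte markers, 8 lay higher in series 2 than in series 1 without overlap, as did 39.8% of all genes, among them Gfap with 1.81 to 4.35 TPM in series 1 and 26.0 and 47.2 TPM in series 2. The summed astrocyte markers were 8764 to 9414 TPM at 1 h and 8784 to 11970 TPM at 8 h, and no marker of the list was at 0. Their median log2 fold change was 0.53 over all libraries and -0.04 with the series as a term, and limma called 0 of 9, with 1 at an unadjusted p under 0.05. The part of these measures in the Tubb3 difference was not tested.

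Against the other beta-tubulins, Tubb3 was a minor isotype. Tubb2b, also enriched in developing neurons, stood at 1851 to 2643 TPM and Tubb5, a general isotype, at 979 to 1187 TPM. Tubb3 amounted to 0.917% to 1.62% of Tubb2b and to 1.60% to 4.20% of Tubb5. Tubulin genes are close paralogs, and the sources used here do not state how reads shared between them were assigned.

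Stmn2 (ENSMUSG00000027500, chr3:8509360-8561606, plus strand) encodes a microtubule-destabilizing stathmin of growing axons and is a known Rest target. Its levels were 0.281 and 0.251 TPM at 1 h and 0.158, 0.192 and 0.102 TPM at 8 h. Both 1 h libraries lay above the 3 at 8 h, at levels under the limit for testing, and the count table does not list the gene. Stmn2 was at 0.0254% to 0.120% of its paralog Stmn1, a gene of dividing precursors at 223 to 402 TPM.

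**Figure D3:**
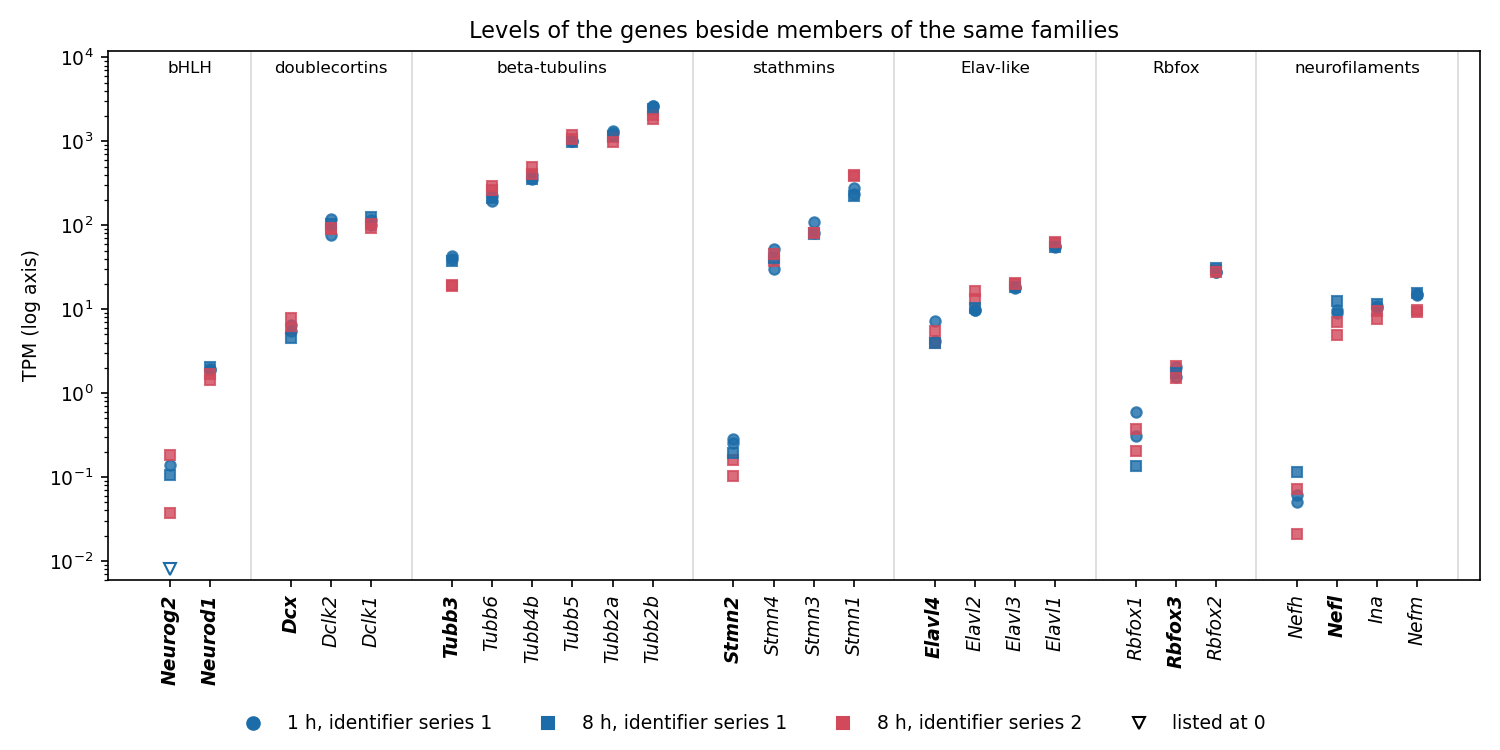
TPM on a log axis of 8 of the 9 genes (bold names, all but Rest) beside members of the same families, 1 symbol per library, with circles for 1 h, squares for 8 h, blue and red for identifier series 1 and 2, and an open triangle where a gene is listed at 0. Dcx, Tubb3, Stmn2 and Elavl4 are the lowest of the family members shown, and Tubb3 at 19.0 to 42.9 TPM lies far below Tubb2b at 1851 to 2643 TPM.

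The wider list of 27 neuroblast cytoskeleton and migration genes was abundant, with 26 genes tested. Its highest member was Tuba1a, the alpha-tubulin of developing neurons, at 3867 to 5276 TPM, followed by Tubb2b. With limma 0 of 26 were called and 1 had an unadjusted p under 0.05, Kif5c, a kinesin gene with a log2 fold change of -0.40, or -0.19 with the series as a term (named after its value was seen). For 7 genes, among them Tubb2b, Tuba1a and the growth cone gene Gap43, all libraries at 8 h lay below both at 1 h, and for 0 genes above, against 9.43% and 23.7% of all genes. The median log2 fold change was -0.08, with 10 positive and 16 negative estimates (7 and 19 after median-ratio scaling). With the identifier series as a term the split was 13 and 13, and 11 of the 26 lay lower in series 2 without overlap, against 13.5% of all genes.

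The neuronal RNA-binding proteins were represented by Elavl4 and Rbfox3. Elavl4 (ENSMUSG00000028546, chr4:110203722-110351909, minus strand) encodes HuD, which stabilizes neuronal messenger RNAs. The 1 h libraries held 7.21 and 4.20 TPM of Elavl4 and the 8 h libraries 3.98, 3.97 and 5.51 TPM. One of the 1 h libraries was the highest and the other lay within the 8 h range. Its log2 fold change was -0.26 ± 0.25 (95% interval -0.88 to 0.36) with an adjusted p of 0.620 (limma). In the count table Elavl4 stood at 20.4 and 11.7 CPM (reads scaled to the column total) at 1 h and 11.6, 5.04 and 10.8 CPM at 8 h, and the lowest value rested on 73 reads. The column named for 8 h replicate 14 was the lowest and that of 1 h replicate 1 the highest, each apart from the others. The edgeR estimate was -0.83 ± 0.41 with an adjusted p of 0.966. It was -0.38 without 1 h replicate 1 and -0.53 without 8 h replicate 14. Within series 1 by column name the edgeR estimate of Elavl4 was -1.69. At 8 h this value rests on the column named for replicate 14, whose identity and place in series 1 are in doubt. The fit also assumes that a lone library varies like the 1 h group. The TPM tables gave -0.39 within series 1 and with the series as a term.

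Elavl4 has 12 annotated transcripts and 4 promoter windows, and one of these is shown because both E boxes lie side by side in it. CAGCTG and CAGATG, E-box letters known to be bound by bHLH factors, are in capitals, and the window is RefSeq sequence of GRCm38.p6 written as above.
Elavl4 start site 2, chr4:110287478-110287777, minus strand: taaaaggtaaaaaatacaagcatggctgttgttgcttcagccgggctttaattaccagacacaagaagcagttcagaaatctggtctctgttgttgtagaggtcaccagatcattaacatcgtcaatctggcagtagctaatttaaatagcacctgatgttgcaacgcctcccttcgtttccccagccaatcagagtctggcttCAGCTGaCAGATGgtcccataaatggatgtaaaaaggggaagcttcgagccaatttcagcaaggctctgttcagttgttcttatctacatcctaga
The matches began 46 and 39 bases before this start, and start site 3, which overlaps it, holds the same letters. Start site 4 had CAGATG alone and start site 1 neither. CAGATG was present on either strand in 17.2% of all promoter windows, CAGCTG in 16.3% and at least 1 of them in 30.6%. The expression tables sum over the start sites of a gene, so no level belongs to a single window.

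Rbfox3 (ENSMUSG00000025576, chr11:118489762-118911597, minus strand) encodes the splicing factor NeuN, the standard nuclear marker of mature neurons. The 1 h libraries held 2.07 and 1.54 TPM of Rbfox3 and the 8 h libraries 2.08, 1.74 and 1.50 TPM. The 2 groups covered nearly the same range. Its log2 fold change was -0.02 ± 0.20 (95% interval -0.50 to 0.47) with an adjusted p of 0.972 (limma), and -0.03 with the identifier series as a term. The counts of 68 and 65 at 1 h and 72, 54 and 77 at 8 h gave an edgeR estimate of -0.18 ± 0.29 with an adjusted p of 0.969. Rbfox3 reached 5.43% to 7.45% of Rbfox2, the broadly expressed paralog, and Elavl4 reached 6.51% to 13.2% of Elavl1, the gene of the ubiquitous family member HuR.

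The 12 other neuronal RNA-binding protein genes were led by Ptbp2, a splicing repressor gene of differentiating neurons, at 80.4 to 124 TPM. Of these, 9 were tested, limma called 0, and 0 had an unadjusted p under 0.05. The 8 h libraries lay below both 1 h libraries for 4 of the 9 (Celf4, Celf5, Nova1 and Ptbp2) and above them for 1 (Elavl2), against 9.43% and 23.7% of all genes. The median log2 fold change was -0.23, and -0.29 after median-ratio scaling, each with 2 positive and 7 negative estimates. With the identifier series as a term the median was -0.08. For 9 general counterparts of the neuronal genes, such as Elavl1, Rbfox2 and Tubb5, the median was 0.11, limma called 0 with 0 at an unadjusted p under 0.05, and 7 were positive and 2 negative (5 and 4 after median-ratio scaling).

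Nefl represented the neuronal intermediate filaments. Nefl (ENSMUSG00000022055, chr14:68083863-68089095, plus strand) encodes the light neurofilament chain of axons. The 1 h libraries held 9.12 and 9.85 TPM of Nefl and the 8 h libraries 4.93, 12.5 and 7.00 TPM. The series 1 library at 8 h was the highest of the 5, and both series 2 libraries were the lowest. Its log2 fold change was -0.28 ± 0.34 (95% interval -1.12 to 0.56) with an adjusted p of 0.692 (limma), and it turned to 0.36 with the identifier series as a term. The counts were 308 and 397 at 1 h and 541, 495 and 202 at 8 h, with an edgeR estimate of 0.09 ± 0.45 (adjusted p = 0.984). Nefl amounted to 52.8% to 80.0% of Nefm, the gene of the medium chain at 9.34 to 15.6 TPM, which the annotation places on the opposite strand overlapping Nefl. The heavy chain gene Nefh, which comes with axon maturation, stood at 0.0208 to 0.114 TPM.

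Genes of mature neurons and synapses covered a wide range. Of 20 genes, 14 were tested, limma called 0, and 0 had an unadjusted p under 0.05. Vamp2, a synaptic vesicle gene, stood at 73.8 to 84.6 TPM, and Dlg4, the gene of a postsynaptic scaffold, at 66.7 to 86.8 TPM. Slc17a6, the gene of a vesicular glutamate transporter, and Th, that of the rate-limiting enzyme of dopamine synthesis, were listed at 0 in each library. Slc17a7, the gene of another glutamate transporter, reached at most 0.0571 TPM and Slc32a1, that of the GABA transporter, at most 0.147 TPM. The median log2 fold change was 0.07 (0.06 with the series as a term) with 10 positive and 4 negative estimates, which became 6 and 8 after median-ratio scaling. Of the other lists, 10 stem cell and proliferation markers had a median of 0.26 (-0.05 with the series as a term), 7 tested oligodendrocyte lineage markers one of -0.14 and 2 tested endothelial and mural markers one of 0.02, limma called 0 in each (1, 1 and 0 at an unadjusted p under 0.05), and the defining endothelial genes Cdh5 and Cldn5 were listed at 0. The ependymal marker Foxj1 had a log2 fold change of -0.61 (not called), and Tmem212 was listed at 0.

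**Figure D4:**
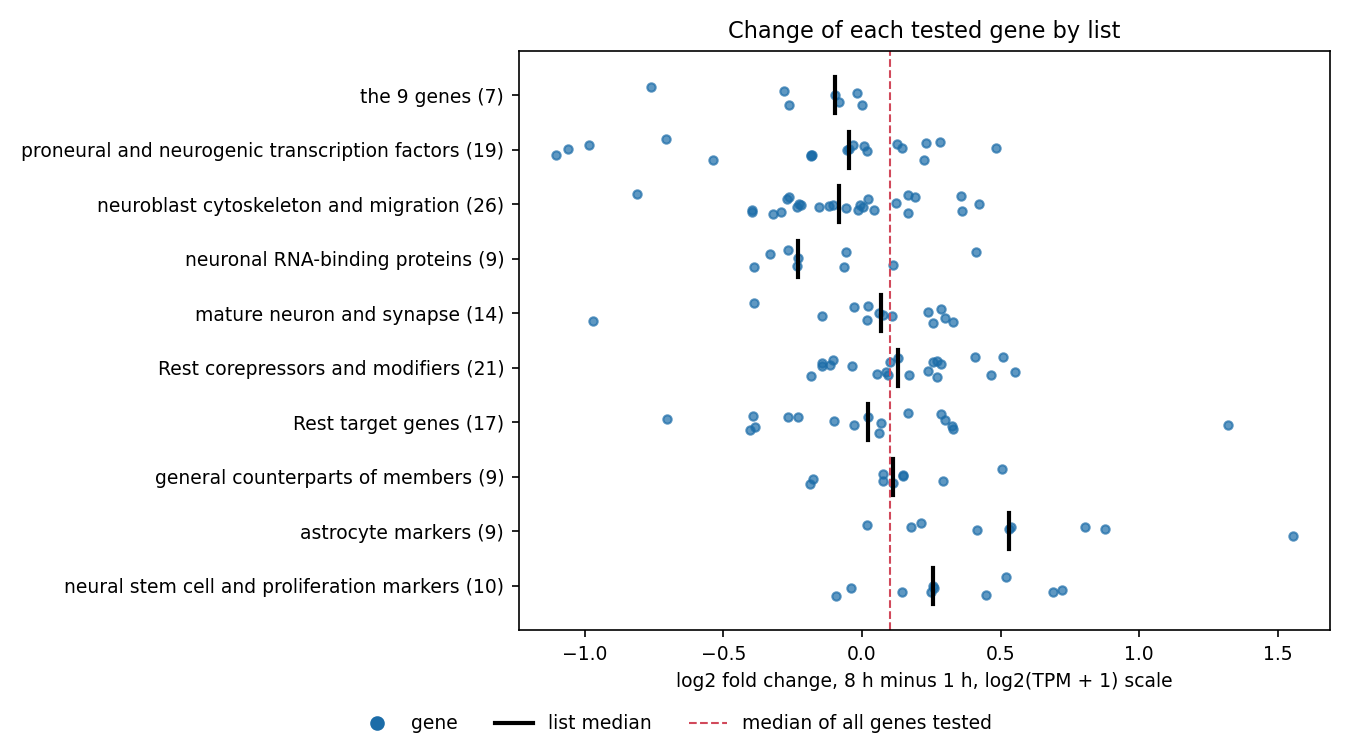
Log2 fold change (8 h minus 1 h, log2(TPM + 1) scale, horizontal axis) of each tested gene of 10 lists, with black bars for list medians, a dashed line at the median of all 13870 genes (0.10) and the number of tested genes in brackets; genes can stand in more than 1 list. The list medians run from -0.23 for neuronal RNA-binding proteins to 0.53 for astrocyte markers, and none of the genes shown was called.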

How the data were processed

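The libraries were stranded, poly-A selected and sequenced as paired ends on an Illumina HiSeq. The authors used nf-core/rnaseq with STAR and the GRCm38 genome, and counted reads per gene. Their deposited table holds unnormalized counts, filtered by a rule not given in the sources used here. Its totals do not give the full depth, since its genes hold 51.3% to 56.7% of the TPM of a library. Over 7480 genes, the count columns named for 8 h replicates 13, 14 and 15 agreed within 0.1 on the log2 scale with their own TPM tables for 24.3%, 24.3% and 40.4% of genes, and with their best match for 77.8% (8 h replicate 14), 38.5% (1 h replicate 2) and 77.9% (8 h replicate 13). The column names were used as given. The authors also deposited, for each library, a table with TPM per gene, FPKM and mean coverage, laid out like StringTie output (tool: not given in the sources used here). Where a gene had several rows, their TPM was summed. The deposited FPKM and coverage values served only as a check of depth, and their most common ratio was 5.57 to 7.18. All 9 genes had the same coordinates as in GENCODE vM21.

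TPM values were tested with limma 3.58.1 in R 4.3.3 (trend, log2(TPM + 1), mean TPM of at least 1, no covariate, two-sided, Benjamini-Hochberg), a scale that understates changes of low genes. Counts were tested with edgeR 4.0.16 (quasi-likelihood, TMM, filterByExpr) and with DESeq2 1.42.0. Calls needed an adjusted p no higher than 0.05 and a log2 fold change beyond 1 in either direction, the thresholds of the study. The scripts were tested on simulated data. Groups came from the labels, and p-values measure the spread between these libraries. The 9 genes and the gene lists were chosen with earlier results of these data known. By rule, named genes are the 9, list genes that were called (0), that had the highest level in their list or that are relatives or partners of the 9, and the 3 nearest patterns to Dcx, Tubb3 and Rest (Euclidean distance of centered values). Other list genes in the text, such as Id1, Id2, Id3, Hes5, Kif5c, Scg2, Gfap and genes listed at 0, fall outside the rule and were chosen after their values were seen. Libraries of cells exposed to hydrogen peroxide were not analysed here. One list gene is left unnamed and enters only the totals over its list.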

Additional observations from a re-analysis of the deposited data

How the results depend on the processing

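No paired analysis was possible because the groups share no replicate number. The count of genes called by limma in the TPM tables was 6. It became 0 with no filter on low values (2371 genes at an unadjusted p under 0.05), 1 with a mean TPM of at least 5 and 19 with the identifier series as a term. Leaving out 1 library gave 0 to 568, with 568 when 8 h replicate 14 was left out, 1 when it was 8 h replicate 13 and 0 when it was 1 h replicate 1, 1 h replicate 2 or 8 h replicate 15 (773, 670 and 856 genes at an unadjusted p under 0.05). Of the 9 genes, 0 to 1 were then called, Tubb3 at -1.07 without 8 h replicate 14, where time and series cannot be told apart. In the count table edgeR called 0 genes (199 at an unadjusted p under 0.05) and DESeq2 0 (227). With series 1 alone by column name edgeR called 145, among the 9 genes 1, Elavl4 at -1.69, a fit that takes the spread of the single 8 h column from the 1 h columns. That column, named for 8 h replicate 14, matched its own TPM table for 24.3% of genes, so count fits that use the series rest on a column of doubtful identity.

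The sign turned for several estimates, none of them called. In the TPM tables, Neurod1 was at 0.060 and Nefl at 0.36 with the series as a term and within series 1, and leaving out 1 library gave -0.18 to 0.16 for Dcx, -0.59 to 0.066 for Elavl4 and -0.15 to 0.12 for Rbfox3. In the count table, with the same doubt, Dcx was at 0.30 with the series as a term and 0.31 within series 1, and Rest at 0.30 in both. Leaving out 1 column gave -0.23 to 0.086 for Dcx, -0.23 to 0.066 for Rest, -0.18 to 0.46 for Nefl and -0.15 to 0.43 for Neurod1. The cause was not tested. Tubb3 and Rest in the TPM tables and Elavl4 and Rbfox3 in the count table kept their sign under each alternative run (12, 12, 11 and 11). Some of these runs could not turn a sign. In the TPM tables, other filters and no fold change threshold return the main estimate. There the series as a term gives the same estimate as series 1 alone. In the count table, no fold change threshold also returns the main estimate.

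With 2 and 3 libraries, the 95% intervals of the 7 tested genes set the size of difference that was detectable, and the series and the time cannot be told apart for 8 h replicates 13 and 15. Neurog2 and Stmn2, under 1 TPM, were not tested.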
